A study of Rattus norvegicus with 6 samples.

Results

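Tgfb1, the CCN factors Ccn2 and Ccn1, the contractile genes Acta2 and Tagln, and the structural genes Actb and Vim form a group of 7 genes read here in rat bone marrow mesenchymal stromal cells. They were chosen by identifier, as 7 of the 30452 genes listed in the deposited count table, and all 7 were found there and passed the filter on low counts. These cells stick to the dish, belong to no blood lineage, and can be turned into osteoblasts, chondrocytes or adipocytes. They were wild type (WT) and came from cultures used for osteogenic differentiation. Control cultures were left blank (n = 3), and the other cultures were grown in co-culture with a hydrogel named AAT-ZCG (n = 3). The series' title calls it enzyme-linked and places its use in diabetic bone. The labels give no time in culture, passage, rat of origin or glucose level, and no sample used here holds a component of the gel alone. No label says that the samples of a group came from separate cultures or animals, so the p-values reflect sample-to-sample spread that could be technical in origin.

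Tgfb1 encodes transforming growth factor beta, a secreted ligand that is stored in the matrix in a latent form, is released in part by cell traction, and signals through receptor kinases and SMAD proteins. Stromal cells and fibroblasts under tension polymerise actin. That frees the cofactor MRTF to enter the nucleus, and the cofactor YAP also builds up there under tension. In the nucleus MRTF with SRF turns on actin and contractile genes, and YAP with TEAD turns on Ccn1 and Ccn2. Acta2, the smooth muscle actin, and Tagln, the actin-binding protein transgelin, are the usual marks of a contractile or myofibroblast state. Actb, the main actin of non-muscle cells, and Vim, the mesenchymal intermediate filament protein vimentin, are both abundant in cultured stromal cells.

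With hydrogel, Acta2 fell to 39.4% of its mean control FPKM, Tagln to 69.3% and Actb to 68.9%, and Ccn1 fell to 87.6%. Tgfb1, Ccn2 and Vim were within 5% of their control means and did not pass the test. In all, 4 of the 7 genes were called and all 4 were lower with hydrogel (edgeR quasi-likelihood test, Benjamini-Hochberg adjusted p under 0.05 over all 14715 genes tested). The same rule called 34.5% of all genes tested in either direction and 17.1% as lower. Abundant genes were called more often: 58.5% of the 1731 genes at 100 CPM (counts per 1000000 counts of the library, TMM-scaled) or more, a level that 6 of the 7 exceeded, and 73.9% of the 88 genes at 1000 CPM or more, where 5 of the 7 lay. Set against these shares for either direction, a count of 4 in 7 does not stand apart. In the lower direction alone the shares were smaller, 29.1% at 100 CPM or more and 34.1% at 1000 CPM or more, and with 7 genes no test of the count was made. The median log2 fold change of the 7 was -0.16, against 0.002 over all genes tested. In bulk RNA, fewer cells carrying a transcript and less of it per cell cannot be told apart.

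The files list identifiers without names, and the symbols used here are those given with the list of identifiers. The gene table from RefSeq holds all 7 symbols but no Ensembl identifier, so the pairs could not be looked up in it. As a check on identity, the gene length behind each FPKM value (counts scaled by gene length and by the library total) was worked out from the count, the FPKM and the library total. Rounded to 3 decimals, it came to the same whole number in all 6 libraries for each gene, and the largest relative gap between libraries before rounding was 6.54e-11. These lengths were 1456 bp for Tgfb1 (ENSRNOG00000020652), 2755 bp for Ccn2 (ENSRNOG00000015036), 2102 bp for Ccn1 (ENSRNOG00000014350) and 1621 bp for Acta2 (ENSRNOG00000058039). They were 1169 bp for Tagln (ENSRNOG00000017628), 1933 bp for Actb (ENSRNOG00000034254) and 1765 bp for Vim (ENSRNOG00000018087). Each length was smaller than the gene span, introns included, that RefSeq lists for the symbol in the rat build GRCr8. The closest were the compact genes Ccn2, whose length was 88.4% of a span of 3117 bp, Ccn1 (71.0% of 2960 bp) and Actb (65.1% of 2971 bp). This shows that the lengths could fit the symbols, and it does not identify the genes.

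Library totals ranged from 30601703 to 93728651 counts, and the deep library was number 2 in both groups. The 7 genes rested on 2118 counts (Tgfb1, hydrogel library 3) to 653738 counts (Vim, control library 2) in a library. Together they took 2.41% ± 0.073 (SD, n = 3) of all counts in the control libraries, against 1.96% ± 0.19 (SD, n = 3) in the hydrogel libraries. The number 2 libraries also read high for these genes. Within the controls, control library 2 had the highest FPKM for 6 of the 7 genes, and within the hydrogel group hydrogel library 2 had it for all 7. Of the 1731 genes at 100 CPM or more, 31.4% and 36.2% were highest in those libraries. Hydrogel library 1 had the lowest FPKM of its group for 6 of the 7. The share of all genes lowest in that library was not counted, so this may not be particular to the 7. Results are therefore given with and without these libraries where that bears on them.

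**Figure D1:**
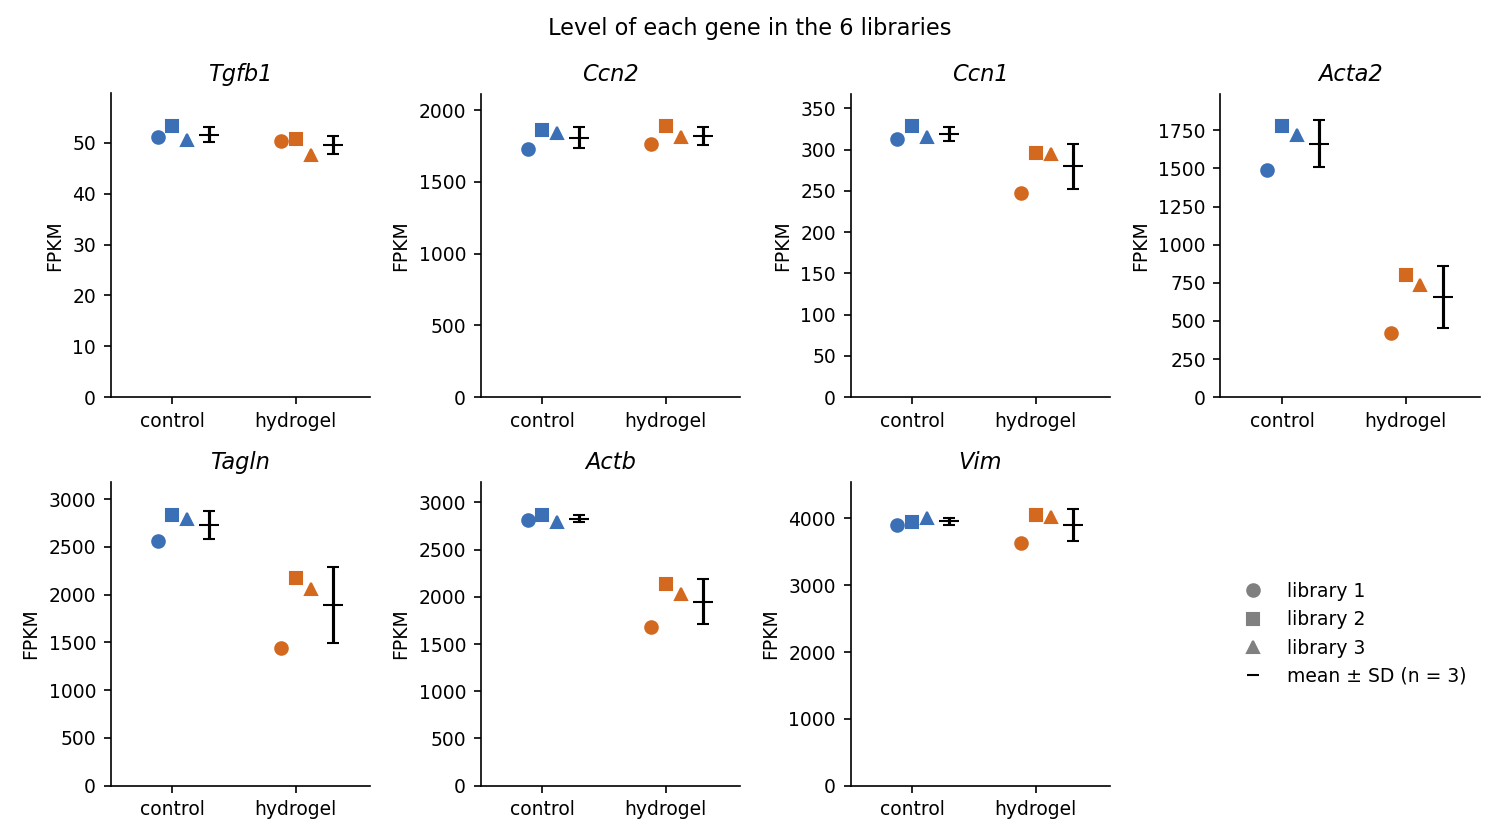
FPKM of each of the 7 genes (vertical axes from 0) in the 3 control libraries (blue) and the 3 hydrogel libraries (orange), with the mean ± SD of each group in black and the library number given by the symbol. Hydrogel values of Acta2, Tagln, Actb and Ccn1 lie below all controls, with hydrogel library 1 (circle) lowest, while the groups overlap for Tgfb1, Ccn2 and Vim.

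The ligand gene Tgfb1 stayed close to its control level. It read 51.1, 53.3 and 50.5 FPKM in control libraries 1, 2 and 3, and 50.3, 50.7 and 47.5 FPKM in hydrogel libraries 1, 2 and 3. The groups overlapped, since hydrogel library 2 lay above control library 3. The fit gave Tgfb1 a log2 fold change of -0.03, with a standard error (SE) of 0.05 and an edgeR adjusted p of 0.648, and the estimate ± 2 SE ran from -0.14 to 0.07. The amount of latent or active TGF-beta protein was not measured. Tgfb1 was by far the lowest of the 7 genes per length, at rank 1156 of all listed genes by mean FPKM in controls.

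Ccn2 and Ccn1 encode secreted matricellular proteins that bind integrins and matrix, and both are early targets of YAP with TEAD. Ccn2, formerly Ctgf, is also a classic target of TGF-beta. It read 1729, 1859 and 1839 FPKM in the controls and 1763, 1889 and 1812 FPKM with hydrogel, and the groups overlapped. The estimate for Ccn2 was a log2 fold change of 0.04 (edgeR adjusted p = 0.537, SE 0.04, ± 2 SE from -0.05 to 0.12). Ccn2 ranked 23 of all listed genes by mean FPKM in controls and 26 with hydrogel.

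Ccn1, formerly Cyr61, fell slightly, and its call was not secure. It read 312.6, 328.7 and 316.0 FPKM in the controls and 247.8, 296.3 and 294.9 FPKM with hydrogel, so that all 3 hydrogel libraries lay below all 3 controls. On TMM-scaled CPM, where Ccn1 did not overlap either, such an order was met by 23.5% of all genes tested. The share among genes as abundant as Ccn1 was not counted. For Ccn1 the fitted log2 fold change was -0.16 (edgeR adjusted p = 0.0421, SE 0.06). Hydrogel library 1 carried much of it: without that library the log2 fold change was -0.08 and the call was lost (edgeR adjusted p = 0.134). Leaving out a control library also ended the call, with a fold change close to that of all 6 libraries: the log2 fold change was -0.188 without control library 1 (edgeR adjusted p = 0.0558), -0.143 without control library 2 (0.153) and -0.171 without control library 3 (0.0917). Over 17 other settings the adjusted p ran from 0.00119 to 0.153, and 8 of them kept the call.

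The CCN genes were also set against each other within each library. The ratio of Ccn2 to Ccn1 FPKM was 5.53, 5.66 and 5.82 in controls and 7.11, 6.38 and 6.14 with hydrogel. The ratio does not depend on how the libraries are scaled. Every hydrogel library was above every control, by 1.15-fold on average, and 3 against 3 libraries cannot give an exact permutation p under 0.1. As Ccn2 hardly moved, the shift mostly restates the fall of Ccn1, whose call was not secure. It was largest in hydrogel library 1. How many of all genes separate in this way against Ccn1 was not counted.

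The contractile gene Acta2 changed most. Its level was 1488, 1778 and 1720 FPKM in the controls and 423.2, 802.6 and 737.9 FPKM with hydrogel. Hydrogel libraries 2 and 3 kept 48.3% and 44.4% of the control mean and library 1 kept 25.5%, and the groups lay far apart. The fit gave Acta2 a log2 fold change of -1.32 (edgeR adjusted p = 6.79e-06, SE 0.15). Acta2 went from rank 26 to rank 62 of all listed genes by mean FPKM.

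Acta2 was the only 1 of the 7 to be called with a fold change beyond 2. Called falls of that size were 2.12% of all genes tested, and 0.289% (5 genes) of the 1731 at 100 CPM or more. Among those 1731 genes Acta2 had the largest fall in this fit, and of the 45 genes at least as abundant as Acta2 (itself included) none fell further. Below 100 CPM other genes fell further, as the plot of fold change against abundance shows. The fall did not rest on 1 library: leaving out each library in turn gave log2 fold changes from -1.49 to -1.08, the smallest without hydrogel library 1, with edgeR adjusted p from 1.3e-11 to 0.000135. Without the deep libraries, on libraries 1 and 3 of each group, it was -1.44 (edgeR adjusted p = 7.31e-05). Over 17 other settings the largest adjusted p for Acta2 was 0.0308, with edgeR's robust fit.

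The upstream sequences of Ccn2, Ccn1 and Acta2 are shown because MCAT elements bound by TEAD are known in these genes. They are also the 3 searched promoters of the group in which the motif was found. Their values differ: Acta2 was called lower beyond 2-fold, Ccn1 was called by a smaller fall and Ccn2 was not called. No link between the motif and these values was tested. The sequences are the bases just before the RefSeq start in GRCr8, 5′ to 3′ on the gene's own strand. Each GGAATG, the TEAD motif named MCAT, is in capitals (CATTCC where it lies on the other strand). They lie at chr1:22624615-22624794, chr2:237225690-237225869 and chr1:241172504-241172703, all on the minus strand.
Ccn2: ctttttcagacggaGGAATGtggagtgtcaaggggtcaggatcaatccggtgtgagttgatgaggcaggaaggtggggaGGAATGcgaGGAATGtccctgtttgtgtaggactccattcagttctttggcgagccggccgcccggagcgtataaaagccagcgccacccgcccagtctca
Ccn1: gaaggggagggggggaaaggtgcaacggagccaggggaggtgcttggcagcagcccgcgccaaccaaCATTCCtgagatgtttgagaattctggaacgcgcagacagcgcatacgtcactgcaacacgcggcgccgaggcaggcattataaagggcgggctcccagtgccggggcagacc
Acta2: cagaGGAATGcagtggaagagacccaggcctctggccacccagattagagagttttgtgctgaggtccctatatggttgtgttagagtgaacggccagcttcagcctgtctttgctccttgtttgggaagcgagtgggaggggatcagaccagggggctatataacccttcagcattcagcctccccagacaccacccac

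Ccn2 held 3 copies of GGAATG, which began 166, 101 and 92 bases before the start. Ccn1 held 1 on the opposite strand, 113 bases before the start, and Acta2 held 1, at 196 bases. Of 33469 RefSeq promoter windows of 300 bases (250 before and 50 after the start), 14.2% held the motif on either strand, and 0.0956% held 3 or more copies. The promoters of Tgfb1 and Vim, the other 2 of the 5 genes with a promoter in the table, held none. Tagln and Actb had no promoter there and were not searched. The CArG box that SRF binds was searched only as its exact form, with a core of A and T alone. That form was in none of the 5 and in 1.64% of all windows. CArG-like forms with a C or G in the core were not searched or counted. The Acta2 stretch above holds ccctatatgg and ccttgtttgg, which are of that kind, so a missing exact match does not mean a missing SRF site. How many other promoters hold such forms is not known, so they do not set Acta2 apart. Also in none of the 5 were the SMAD-binding CAGA box AGCCAGACA (0.368% of windows) and the AP-1 motif TGANTCA (7.33%). Both strands were searched for each motif. Of the exact forms searched only GGAATG was found, so no marked matches overlap. A match is a run of letters and was not tested as a binding site.

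Tagln fell less. It read 2557, 2839 and 2789 FPKM in the controls and 1438, 2178 and 2058 FPKM with hydrogel, again with no overlap and with hydrogel library 1 lowest, at 52.7% of the control mean. For Tagln the fitted log2 fold change was -0.50 (edgeR adjusted p = 0.00122, SE 0.10). Without hydrogel library 1 it was -0.34 and still called (edgeR adjusted p = 4.03e-06), and on libraries 1 and 3 of each group it was -0.59 (edgeR adjusted p = 0.00283). With edgeR's robust fit, which gives a gene with unusual spread less shrinkage, the call was lost (adjusted p = 0.12).

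**Figure D2:**
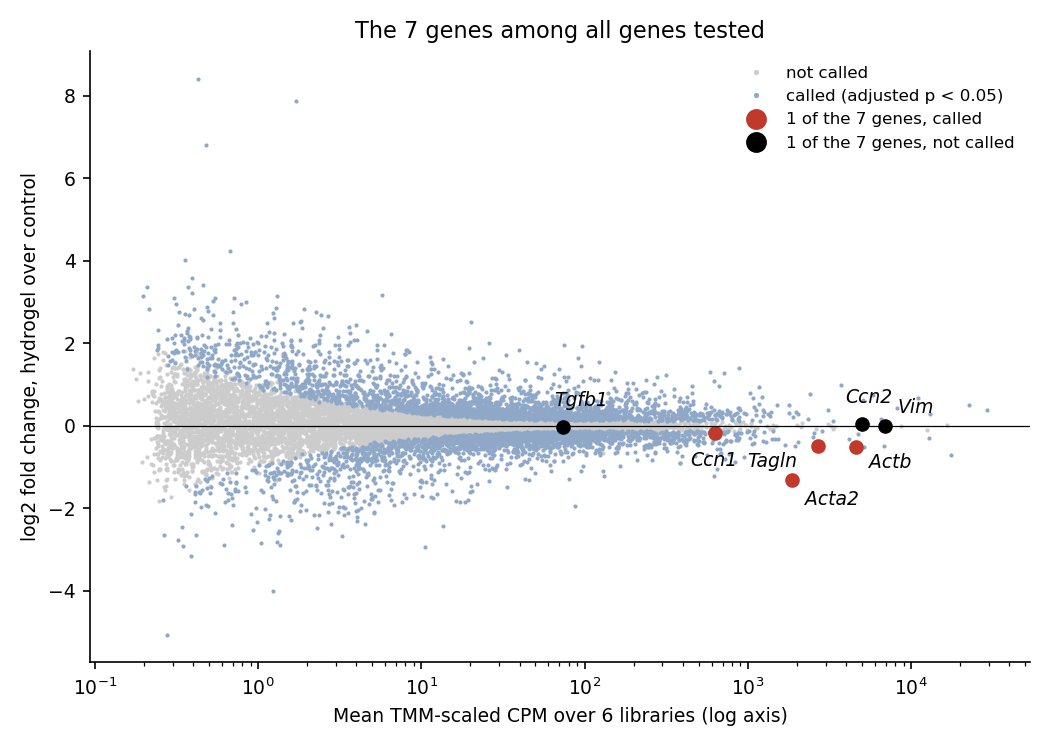
Log2 fold change of hydrogel over control (vertical axis) against mean TMM-scaled CPM (horizontal, log axis) for the 14715 genes tested, with the 7 genes marked in red where called and in black where not. Acta2, at a log2 fold change of -1.32, lies below every other gene at 100 CPM or more, and Tgfb1, Ccn2 and Vim lie near 0.

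Set against Tagln, Acta2 was lower in every hydrogel library, which is given without a test. The FPKM of Acta2 was 0.58, 0.63 and 0.62 of that of Tagln in the controls and 0.29, 0.37 and 0.36 of it with hydrogel. The groups did not overlap, and on average the ratio with hydrogel was 0.557 of the control ratio. How many of all genes lie below the controls in this way against Tagln was not counted. Of the actin message counted for Acta2 and Actb together, per length, Acta2 made up 34.6%, 38.2% and 38.1% in the controls and 20.1%, 27.3% and 26.7% with hydrogel.

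Actb encodes the cytoplasmic beta actin, a transcript often taken as a fixed reference in PCR. It read 2816, 2872 and 2796 FPKM in the controls, within 3% of each other, and 1682, 2136 and 2026 FPKM with hydrogel. The hydrogel libraries stood at 59.5%, 75.5% and 71.7% of the control mean, all below the controls. The fit gave Actb a log2 fold change of -0.51 (edgeR adjusted p = 1.16e-05, SE 0.06). It ranged from -0.59 to -0.41 when each library was left out in turn, with edgeR adjusted p from 5.15e-09 to 0.000229, and on libraries 1 and 3 of each group it was -0.57 (edgeR adjusted p = 9.7e-05). Of the 88 genes at 1000 CPM or more, 34.1% were called lower, and by size of fall Acta2 was number 1, Actb number 4 and Tagln number 6.

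Vim did not pass the test. It read 3907, 3952 and 4006 FPKM in the controls and 3630, 4058 and 4014 FPKM with hydrogel, and hydrogel library 1 alone lay below the controls. For Vim the fitted log2 fold change was 0.01 (edgeR adjusted p = 0.925, SE 0.04, ± 2 SE from -0.08 to 0.09), and its sign turned in 8 of 17 other settings. Vim was the most abundant of the 7 per length in both groups, at rank 8 of all listed genes in controls and rank 7 with hydrogel.

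The order of the 7 levels per length was the same in both groups, from Vim through Actb, Tagln, Ccn2, Acta2 and Ccn1 to Tgfb1, but the gaps between neighbours changed. In the controls Actb and Tagln overlapped, and so did Ccn2 and Acta2. With hydrogel, Actb overlapped with Tagln and Tagln with Ccn2, at means of 1948, 1891 and 1821 FPKM, and Acta2 stood apart below them at 654.6 FPKM.

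**Figure D3:**
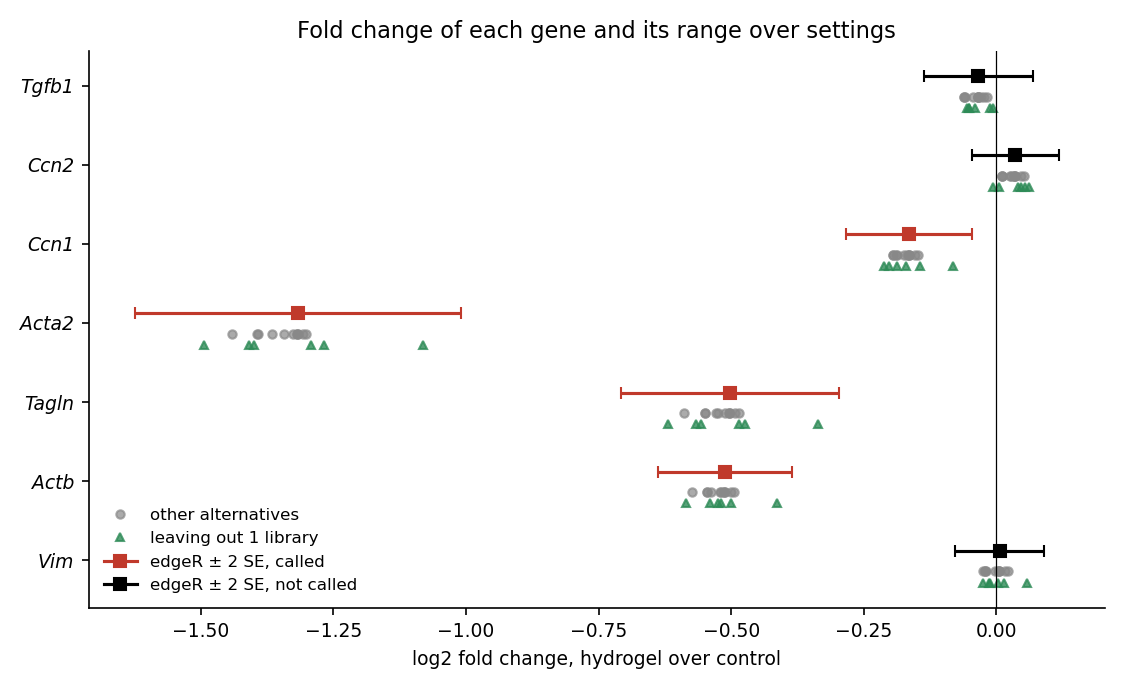
Log2 fold change of hydrogel over control for each gene: squares with bars are the edgeR estimate ± 2 SE (red where called), green triangles the 6 fits that leave out 1 library, and grey circles the other settings. Acta2, Tagln and Actb stay below 0 in every setting drawn, the triangle nearest 0 in each being the fit without hydrogel library 1, and Ccn1 stays below 0 but comes as near as -0.08.

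Of the 7, the genes that fell were also the ones that varied most among the hydrogel libraries. The coefficient of variation of FPKM within the hydrogel group was 31.0% for Acta2, 21.0% for Tagln, 12.2% for Actb and 9.88% for Ccn1, and 6.03%, 3.50% and 3.48% for Vim, Ccn2 and Tgfb1. In controls it was 9.22% for Acta2, 5.52% for Tagln and 1.39% for Actb. The median over genes at 100 CPM or more was 2.77% in controls and 3.67% with hydrogel, and 2 of those 1731 genes varied more than Acta2 among the hydrogel libraries. In the 4 falling genes the order of the hydrogel libraries was the same, with library 1 lowest, then 3, then 2. This order was not particular to them: Ccn2 and Vim, which were not called, had it too, and only Tgfb1 did not. The libraries also differ in depth, with number 2 the deepest, and the part of depth or of a batch in this order was not tested.

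Because Actb fell, levels read against it gave another picture. Of the other 6 genes, 4 had a higher ratio to Actb in every hydrogel library than in any control, as did 73.5% of all genes tested. On average the ratio of Tgfb1 was 1.40 times its control value, that of Ccn2 1.47 times, that of Ccn1 1.28 times and that of Vim 1.44 times. Ccn1 therefore read as lower against the whole library and as higher against Actb. For Tagln the ratio was 0.91, 0.99 and 1.00 in the controls and 0.86, 1.02 and 1.02 with hydrogel, with overlap, and on average 0.997 of its control value. Acta2 alone of the 6 was lower against Actb in every hydrogel library, at 0.25, 0.38 and 0.36 against 0.53, 0.62 and 0.62 in the controls, a pattern met by 2.72% of all genes tested. These ratios are given without a test.

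**Figure D4:**
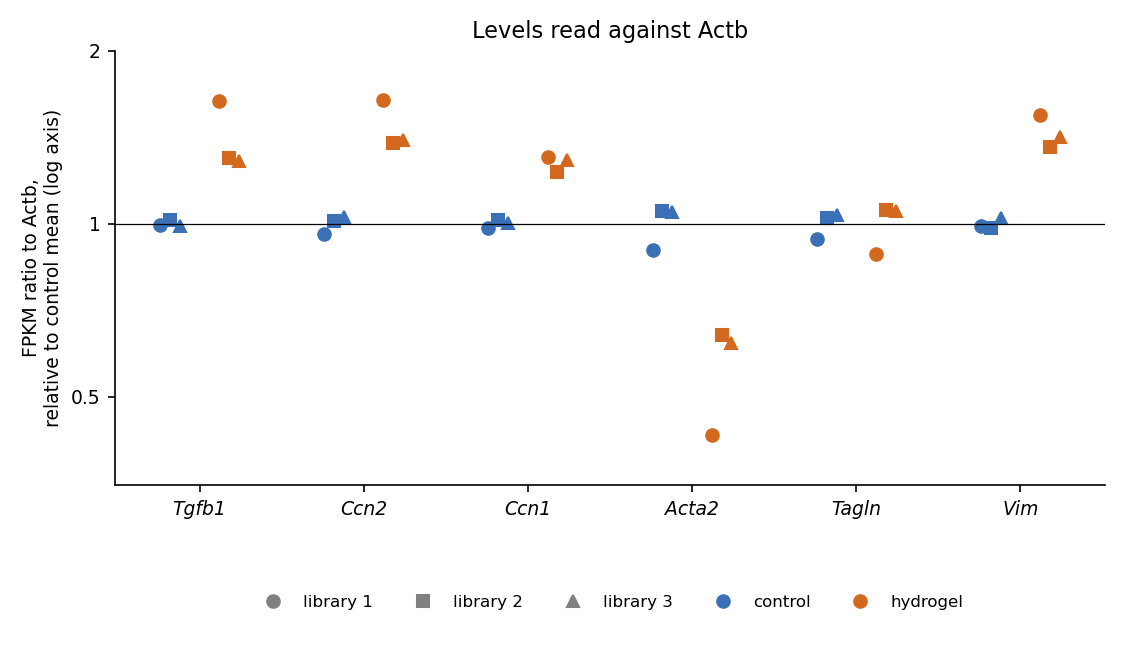
FPKM of 6 genes divided by that of Actb in the same library, relative to the control mean (log axis), for the 3 control libraries (blue) and the 3 hydrogel libraries (orange), with the library number given by the symbol. Tgfb1, Ccn2, Ccn1 and Vim lie above the controls, Tagln overlaps them and Acta2 lies below.

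Actin genes are close copies of one another. How the authors' counting treated reads that match several genes, and whether it used strand, is not given in the sources used here, so the split of reads between Acta2, Actb and other actin genes or pseudogenes is uncertain. Other genes of the TGF-beta, YAP and SRF pathways, and the markers of stromal, blood, endothelial and muscle cells, were not analysed here, because 0 of the 30452 identifiers matched the gene table. The labelled cell type was therefore not checked beyond the high level of Vim, which many cultured cells share.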

How the data were processed

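RNA sequencing of 6 libraries was used. TRIzol extraction of total RNA and a VAHTS Universal V6 library kit are stated, per the labels' protocols. The authors deposited raw counts per gene, and FPKM values that equal those counts over the library's summed counts and a gene length. Aligner, counter and strandedness are not given in the sources used here. Which genome was used is not certain: GRCm38 and mm10, both mouse builds, stand in the submitters' processing notes, while the identifiers carry the Ensembl rat prefix.

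Genes were kept by filterByExpr, scaled by TMM and tested on counts with edgeR 4.0.16 in R 4.3.3 (quasi-likelihood F test, group as the term, Benjamini-Hochberg over 14715 genes). Fold changes are hydrogel over control, and each SE is the fold change over the root of its F statistic. Levels are FPKM. The test was checked on simulated data. The rule names all 7 genes. The genes, pathway lists and motifs were chosen with earlier results of these data known. Alternatives were DESeq2 1.42.0, limma 3.58.1 on log2 FPKM, other scalings, filters and thresholds, a replicate block and leaving out libraries. Library pairs within a group differed beyond counting noise (chi-square per degree of freedom 6.17 to 16.5). None was therefore taken as a repeat read of another, and each counted once. Such a gap does not show that they came from separate cultures or animals. Promoters are from RefSeq, GRCr8.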

Additional observations from a re-analysis of the deposited data

How the results depend on the processing

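Over 19 alternatives no gene of the 7 was called higher, and 18 alternatives gave 3 or 4 called lower. The exception was a limit of 2-fold, which left 1 gene (Acta2) and 843 of the 5079 calls over all genes. Leaving out 1 library gave 3 to 4 of the 7 called lower and 3999 to 4676 genes called in all. Acta2 and Actb kept call and direction in the 17 settings run on each, and Tagln in 16, the exception being the robust fit. Ccn1 kept its direction in all 17 and its call in 8. Upper-quartile scaling gave Ccn1 an adjusted p of 0.0504, a filter at 5 CPM 0.0666, libraries 1 and 3 alone 0.0892 and limma on log2(FPKM + 1) 0.0633. Ccn2 and Vim, neither of them called, changed sign. Ccn2 ran from -0.006 (without control library 1) to 0.061 when a library was left out. Vim ran from -0.026 to 0.058 when a library was left out. It was -0.012 without control library 1, -0.026 without hydrogel library 2, -0.014 without hydrogel library 3, -0.020 with library totals alone, -0.003 with no filter, -0.025 on libraries 1 and 3 and -0.022 with limma at either pseudocount. With the median of all tested genes in place of Actb, the log2 difference between groups went from 0.485 to -0.021 for Tgfb1 and from 0.350 to -0.156 for Ccn1, which changed sign. It went from 0.555 to 0.049 for Ccn2, from 0.523 to 0.018 for Vim, from -0.849 to -1.355 for Acta2 and from -0.005 to -0.511 for Tagln. Scalings moved the median of all genes by at most 0.036. With a replicate block on the labels' sample numbers, 4 of the 7 were again lower and 5246 genes were called, 4981 of them as without it. Same-numbered libraries' deviations correlated at 0.022, 0.051 and 0.013, and every control library correlated best with its own number. These values are small and were not tested, and deviations from a group mean are not independent of each other. They therefore show no pairing, and the labels give none. Low counts limit none of the 7, whose lowest count in a library was 2118. The part of depth in the high values of the number 2 libraries was not tested.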
